A study of Homo sapiens with 8 samples.

Results

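The 40 genes described here are listed as induced by androgen in LNCaP, a human prostate adenocarcinoma line, and leave out the kallikreins. Whether androgen induces each of them in these cells was not tested. They were taken by gene symbol from a list of well-known androgen targets, all 40 were found among the 27140 genes of the count table, and all 40 passed the filter on low counts with 15289 genes in all. RNA was sequenced in 8 libraries of 4 stable lines, with 2 libraries a line. In the mutant rescue, a short hairpin RNA against METTL3 was combined with a hairpin-resistant, catalytically dead METTL3. The wild-type rescue carried a METTL3 hairpin with a resistant, active METTL3. The knockdown carried the METTL3 hairpin and a vector, and the control a control hairpin and a vector. All 4 lines were made with lentivirus, selected with puromycin at 1 µg/ml and grown in RPMI-1640 with serum, and the labels name no added androgen. The labels do not say how many hairpin sequences were used, whether a line is 1 clone, or whether its 2 libraries were grown apart. Each test thus measures the spread between these libraries, which may be technical. That spread was little above counting error, at a mean chi-square per degree of freedom of 1.21 to 1.35 by line. The biological coefficient of variation was 1.40%. METTL3 is the enzyme that writes N6-methyladenosine into messenger RNA.

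Androgen acts on transcription through response elements in enhancers and promoters, with FOXA1 and HOXB13 as partner factors in prostate cells. Its induced genes serve the luminal secretory cell: they encode secreted proteins, transporters, lipid and sugar enzymes, and regulators that feed back on the hormone response. Several of them, among them FKBP5, TSC22D3, ZBTB16 and SGK1, are also classical targets of the glucocorticoid receptor, which reads the same response element.

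KLK3, 1 of the 9 luminal prostate markers listed, was present in every library, in CPM, which are counts scaled to library size. Its means were 3086 CPM in the mutant rescue, 2984 CPM in the wild-type rescue, 2617 CPM in the knockdown and 3694 CPM in the control. Most of the luminal list was called lower on knockdown, but not all, beside 25.1% of all tested genes. Of the 3 basal markers, KRT5 had 0 counts in 7 libraries and 1 in the other, and the summed level was 2.64 to 4.01 CPM over all 8 libraries. Of the 6 stromal markers, COL1A2 had 0 counts in all 8 libraries, and the summed level was 103 to 108 CPM in the mutant rescue, 99.5 to 101 CPM in the wild-type rescue, 87.7 to 95.4 CPM in the knockdown and 82.5 to 83.6 CPM in the control, most of it COL1A1. On knockdown 1 of 2 tested basal markers was called higher (TP63, at up to 12 counts a library) and 0 lower. Of 4 tested stromal markers, 2 were called higher and 0 lower. Of all tested genes, 22.9% were called higher there and 25.1% lower. The part of these markers in the results was not tested. The 9 markers listed for prostate lines of a non-luminal kind, such as CAV1, GSTP1 and S100A6, were detected in all libraries at a summed level of 16.3 CPM in both mutant rescue libraries, 35.9 and 15.3 CPM in the wild-type rescue, 16.9 and 15.8 CPM in the knockdown, and 14.7 and 16.2 CPM in the control. Wild-type rescue replicate 1 thus stood apart, and the main counts that use it are also given without it. METTL3 averaged 334 CPM in the mutant rescue, 317 in the wild-type rescue, 28.8 in the knockdown and 68.4 in the control. Library totals were 15200343 to 17893241 counts.

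Promoter windows, from 250 bases before to 50 bases after an annotated start, were at hand from RefSeq (GRCh38.p14) for 32 of the 40 genes, and ACPP, by its newer symbol, was among them. The full palindromic response element, AGAACA followed by any 3 bases and TGTTCT, was in 0 of their 60 windows and in 1 of 34796 windows of all genes. Its single arm AGAACA, searched on both strands and also contained in the full element, was in 6 of the 60 windows (10.0%), against 5159 of all 34796 (14.8%). These 6 windows belong to TRPM8, LIFR, FKBP5, SGK1 and PMEPA1. The windows of TRPM8, FKBP5 and SGK1 are shown because each holds the arm, marked in capitals, while TRPM8 and FKBP5 fell and SGK1 rose on knockdown.
TRPM8, chr2:233979899-233980198, plus strand: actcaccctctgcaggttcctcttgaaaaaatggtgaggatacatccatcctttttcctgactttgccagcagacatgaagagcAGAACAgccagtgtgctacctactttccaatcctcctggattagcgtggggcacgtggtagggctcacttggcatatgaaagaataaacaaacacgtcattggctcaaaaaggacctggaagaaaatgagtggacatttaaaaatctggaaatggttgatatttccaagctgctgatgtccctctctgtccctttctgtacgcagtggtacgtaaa
FKBP5, chr6:35728534-35728833, minus strand: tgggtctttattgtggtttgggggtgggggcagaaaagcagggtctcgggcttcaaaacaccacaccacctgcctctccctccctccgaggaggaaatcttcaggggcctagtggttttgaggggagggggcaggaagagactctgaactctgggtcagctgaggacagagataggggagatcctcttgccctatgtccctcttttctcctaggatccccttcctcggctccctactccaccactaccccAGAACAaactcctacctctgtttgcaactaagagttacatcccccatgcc
SGK1, chr6:134177812-134178111, minus strand: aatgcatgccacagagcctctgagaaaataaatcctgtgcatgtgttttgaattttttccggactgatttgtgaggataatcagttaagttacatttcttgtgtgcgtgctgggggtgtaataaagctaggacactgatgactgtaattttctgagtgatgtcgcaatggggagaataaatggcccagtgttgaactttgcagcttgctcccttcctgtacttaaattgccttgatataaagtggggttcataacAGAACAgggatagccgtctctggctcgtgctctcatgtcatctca
A match is a description of the letters only. Most androgen response elements are known to lie outside such windows.

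Levels per length, as TPM (transcript abundance computed from the counts and the deposited gene lengths), spanned 1.61 to 1040.4 TPM in the control line with a median of 81.5. TMPRSS2, a membrane serine protease, stood highest, followed by the prostate transporter SLC45A3 at 621 TPM and the metalloreductase STEAP1 at 476. SGK1, PTGER4 and STEAP4 stood lowest, at 1.61, 3.89 and 4.95 TPM. TMPRSS2 kept the highest mean in each of the 4 lines, at 913 TPM in the mutant rescue, 808 in the wild-type rescue, 841 in the knockdown and 1040.4 in the control.

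**Figure D1:**
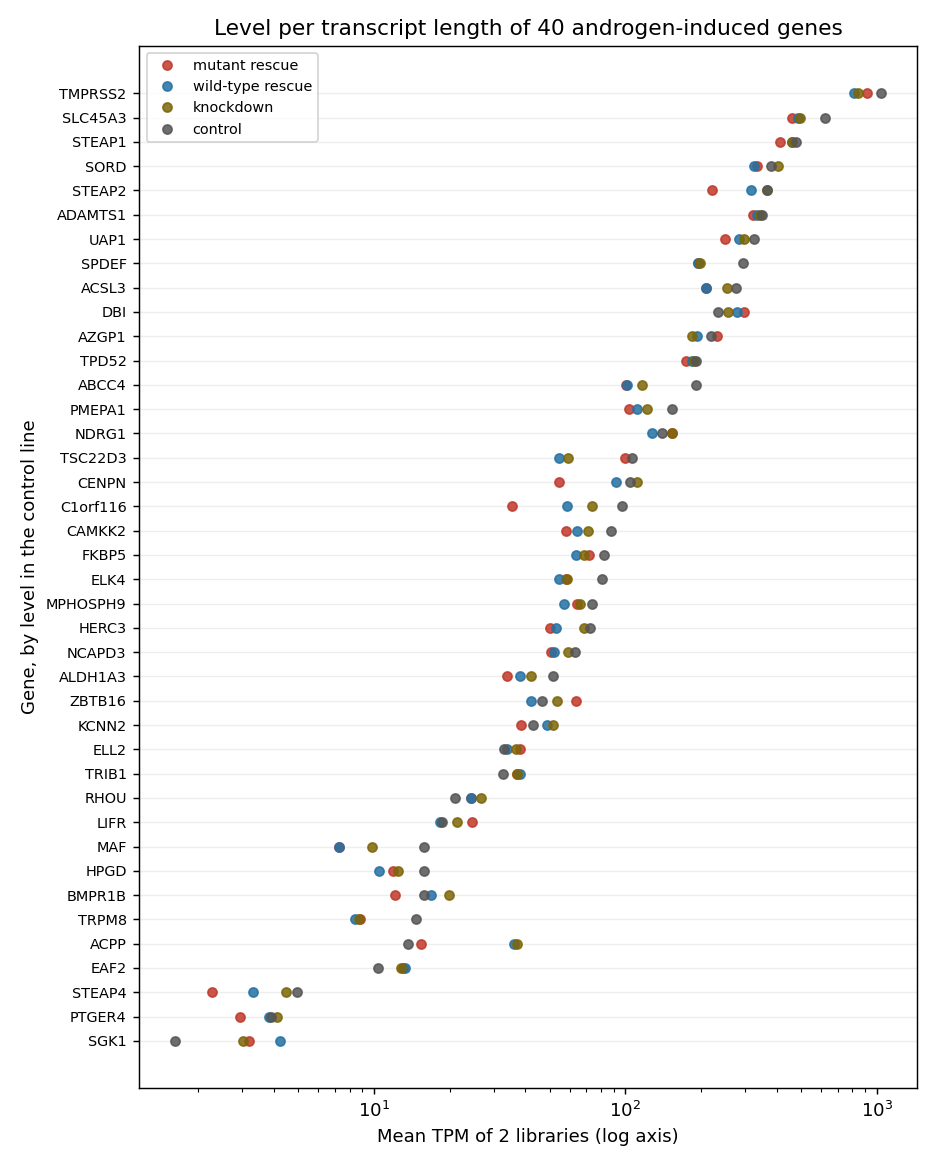
Mean TPM of 2 libraries in each line for the 40 genes, on a log axis and ordered by the control level. The mutant rescue, wild-type rescue, knockdown and control lie close for most genes, and ACPP, C1orf116 and SGK1 show the lines spread apart.

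On METTL3 knockdown, 24 of the 40 genes fell and 11 rose (edgeR, Benjamini-Hochberg adjusted p under 0.05 over all genes tested). The background is 25.1% of all tested genes lower and 22.9% higher, or 30.6% and 27.1% among the 10398 genes that average 10 CPM or more, as 36 of the 40 genes do. The median log2 fold change of the 40 genes was -0.13, against -0.01 over all tested genes, and the median size without sign was 0.24 against 0.19. Of these calls, 18 of the 24 falls and 5 of the 11 rises held under every alternative analysis and with any library left out. The rises numbered 6 with the DESeq2 Wald test, 7 without knockdown replicate 2 and 6 without control replicate 2. With the DESeq2 Wald test 32.3% of all genes with an adjusted p were called in either direction, against 48% in the main fit. Leaving out a library also lowered the share of all genes called. How often the calls of all genes held in this way was not computed. Changes ran from -0.90 in TSC22D3 to 1.38 in ACPP. In bulk RNA, fewer cells of a kind and less RNA per cell cannot be told apart.

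With wild-type METTL3 added, 19 of the 40 genes were lower than in the knockdown and 3 were higher, beside a background of 13.2% lower and 10.8% higher over all tested genes (18.4% and 14.6% at 10 CPM or more). The median log2 fold change was -0.08, against 0.01 over all genes. In this comparison fold changes fell with gene length (Spearman correlation -0.35 across 15289 genes, which are not independent), and these genes are longer than most, with a median of 4423 bases against 3194. With the trend over length removed, 17.2% of all tested genes were called in either direction, against 24% in the main fit. Of the 40 genes, 10 were then lower and 2 higher. Without wild-type rescue replicate 1, 14 were lower and 1 higher, and 1 was also the count of higher genes without knockdown replicate 1 or with the DESeq2 Wald test. Against the control, 28 genes were lower in the wild-type rescue and 6 higher (background 25.5% and 23.8%), with a median of -0.22 against 0.00. At 10 CPM or more the background was 31.8% and 28.1%. Without wild-type rescue replicate 1, the share of all tested genes called fell too in both comparisons of this line. Without wild-type rescue replicate 1 the counts were 26 and 6.

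The mutant rescue against the knockdown had 19 genes lower and 10 higher, beside a background of 25.8% lower and 25.9% higher (31.1% and 32.7% at 10 CPM or more). The median was -0.04 against 0.00 over all genes. Against the wild-type rescue, 13 of the 40 genes were lower in the mutant rescue and 12 higher (background 20.3% and 21.0%, or 24.9% and 28.0% at 10 CPM or more), with a median of -0.01 against 0.00. In either direction 62.5% of the 40 genes were called between the rescues, against 41.3% of all tested genes. By the median, the 40 genes as a whole did not shift one way. Without wild-type rescue replicate 1 both counts were 12, and with the DESeq2 Wald test 8 genes were lower. Against the control, 27 genes were lower in the mutant rescue and 10 higher, beside a background of 29.7% and 29.1% (34.8% and 35.0% at 10 CPM or more), with a median of -0.24 against 0.00. The comparisons with the control share its 2 libraries, and 21 genes were called lower and 5 higher in all 3 lines that carry the METTL3 hairpin. The share of all genes called in this way was not computed, so these joint counts have no background beside them. The 5 higher genes were ACPP, DBI, SGK1, TRIB1 and RHOU.

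**Figure D2:**
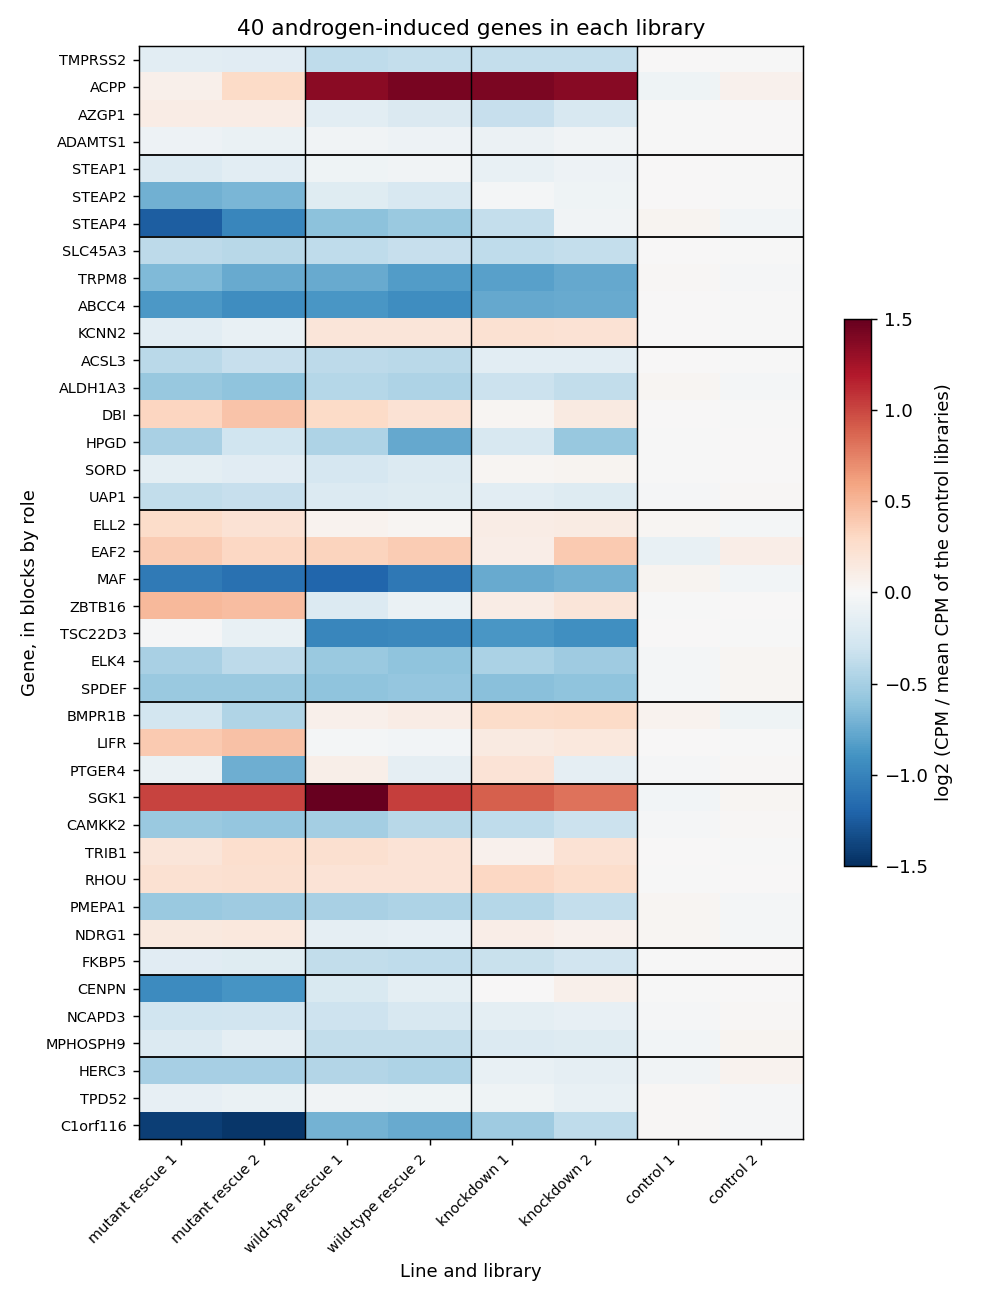
Color gives the log2 ratio of each library's CPM to the mean CPM of the 2 control libraries for the 40 genes (rows, in blocks by role) in the mutant rescue, wild-type rescue, knockdown and control libraries (columns). ABCC4, MAF and TRPM8 are blue in all 6 libraries with the METTL3 hairpin, SGK1 is red in all 6, and ACPP is red in the wild-type rescue and the knockdown.

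Among secreted and cell-surface proteins, ACPP, which encodes prostatic acid phosphatase, had the largest rise on knockdown of the 40 genes. It stood at 21.2 and 24.7 CPM in the mutant rescue, 51.6 and 54.0 CPM in the wild-type rescue, 53.4 and 51.8 CPM in the knockdown and 19.2 and 21.1 CPM in the control. The wild-type rescue and knockdown libraries overlapped with each other and lay above all mutant rescue and control libraries. ACPP thus was higher in the knockdown than in the control (log2 fold change 1.38, SE 0.07, edgeR adjusted p = 1.12e-44) and lower in the mutant rescue than in the wild-type rescue (log2 fold change -1.20, SE 0.06, edgeR adjusted p = 6.87e-39). Between the mutant rescue and the control its value was 0.19 (SE 0.08), a call that ended with the DESeq2 Wald test or without replicate 2 of the mutant rescue or replicate 1 of the control (adjusted p 0.131 to 0.551). AZGP1, a secreted glycoprotein that binds zinc, moved the other way. It stood at 115 and 115 CPM in the mutant rescue, 95.7 and 91.4 CPM in the wild-type rescue, 83.6 and 90.0 CPM in the knockdown and 106 and 107 CPM in the control. It was called lower on knockdown (-0.30, SE 0.04) and higher in the mutant than in the wild-type rescue (0.30, SE 0.04). Its values of 0.11 (SE 0.04) in the wild-type rescue against the knockdown and 0.11 (SE 0.04) in the mutant rescue against the control were less firm. The call between the wild-type rescue and the knockdown ended with DESeq2 size factors, no low-count filter, the DESeq2 Wald test, the compared groups alone or the length trend removed or without replicate 1 of the wild-type rescue or replicate 1 of the knockdown (adjusted p 0.0512 to 0.826). The call between the mutant rescue and the control ended with the DESeq2 Wald test or the length trend removed or without replicate 1 of the control (adjusted p 0.0738 to 0.0938). TMPRSS2 had 1191 and 1183 CPM in the mutant rescue, 1022 and 1036 CPM in the wild-type rescue, 1039 and 1038 CPM in the knockdown and 1331 and 1326 CPM in the control. Its knockdown libraries lay below both control libraries (-0.36, SE 0.02). The matrix protease ADAMTS1 had means of 588 CPM in the mutant rescue, 596 CPM in the wild-type rescue, 592 CPM in the knockdown and 624 CPM in the control. Its knockdown value was -0.07 (SE 0.02), not called without knockdown replicate 1 (adjusted p = 0.0541).

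The metalloreductases STEAP1, STEAP2 and STEAP4 reduce iron and copper at membranes, with the known exception that STEAP1 lacks the domain that binds the electron donor. All 3 were lowest in the mutant rescue. STEAP2 had 609 and 622 CPM in the mutant rescue, 885 and 846 CPM in the wild-type rescue, 981 and 957 CPM in the knockdown and 1004 and 998 CPM in the control. Both mutant rescue libraries lay well below the other 6. It fell in the mutant relative to the wild-type rescue (log2 fold change -0.49, SE 0.02, edgeR adjusted p = 3.15e-51) and against the knockdown (-0.65, SE 0.02). Its knockdown value of -0.05 (SE 0.02) was a call that ended with DESeq2 size factors, no low-count filter or the DESeq2 Wald test or without replicate 2 of the knockdown or either control library (adjusted p 0.0717 to 0.339). STEAP4, at low counts, had 3.71 and 4.41 CPM in the mutant rescue, 5.67 and 5.91 CPM in the wild-type rescue, 6.77 and 8.39 CPM in the knockdown and 8.97 and 8.44 CPM in the control. Its mutant rescue libraries lay below both control libraries (log2 fold change -1.10, SE 0.16, edgeR adjusted p = 3.18e-10). Against the wild-type rescue the STEAP4 value was -0.51 (SE 0.17), a call that ended with the DESeq2 Wald test or without replicate 1 of the mutant rescue or replicate 2 of the wild-type rescue (adjusted p 0.0612 to 0.131). In the wild-type rescue against the knockdown it was -0.38 (SE 0.14), which ended with no low-count filter, the compared groups alone or the length trend removed or without replicate 2 of the knockdown or either wild-type rescue library (adjusted p 0.0526 to 0.444). STEAP1 moved little, with means of 211 CPM in the mutant rescue, 231 CPM in the wild-type rescue, 225 CPM in the knockdown and 240.4 CPM in the control.

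Of 4 transporters and channels, 3 fell on knockdown, beside 25.1% of all tested genes, and stayed called lower in both rescues against the control. ABCC4, which exports cyclic nucleotides and prostaglandins, had 252 and 241 CPM in the mutant rescue, 250.2 and 240.0 CPM in the wild-type rescue, 269.5 and 272 CPM in the knockdown and 459 and 459 CPM in the control. All 6 libraries with the METTL3 hairpin lay far below the 2 control libraries (log2 fold change -0.76, SE 0.02, edgeR adjusted p = 1.47e-67 on knockdown). Against the control ABCC4 was at -0.90 (SE 0.02) in the mutant rescue and -0.91 (SE 0.02) in the wild-type rescue. TRPM8, the cold- and menthol-sensing channel, had 20.0 and 18.8 CPM in the mutant rescue, 18.7 and 17.7 CPM in the wild-type rescue, 17.9 and 18.6 CPM in the knockdown and 32.1 and 31.2 CPM in the control. It was lower on knockdown by a log2 fold change of -0.79 (SE 0.08). The wild-type rescue libraries overlapped with the knockdown while the mutant rescue libraries lay just above it. TRPM8 was not called in either rescue against the knockdown (mutant rescue 0.09, SE 0.09). SLC45A3, known as prostein, had means of 611 CPM in the mutant rescue, 628 CPM in the wild-type rescue, 624 CPM in the knockdown and 807 CPM in the control. Its log2 fold change on knockdown was -0.37 (SE 0.02). KCNN2, a calcium-activated potassium channel, did not follow these. It stood at 44.7 and 46.1 CPM in the mutant rescue, 56.3 and 56.3 CPM in the wild-type rescue, 58.2 and 57.8 CPM in the knockdown and 50.0 and 49.6 CPM in the control. It rose on knockdown (0.22, SE 0.05) and was lower in the mutant than in the wild-type rescue (-0.31, SE 0.05). Against the control, KCNN2 was called lower in the mutant rescue (-0.13, SE 0.05), a call that ended with no low-count filter, the DESeq2 Wald test or the length trend removed or without replicate 1 of the mutant rescue or either control library (adjusted p 0.0621 to 0.169).

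**Figure D3:**
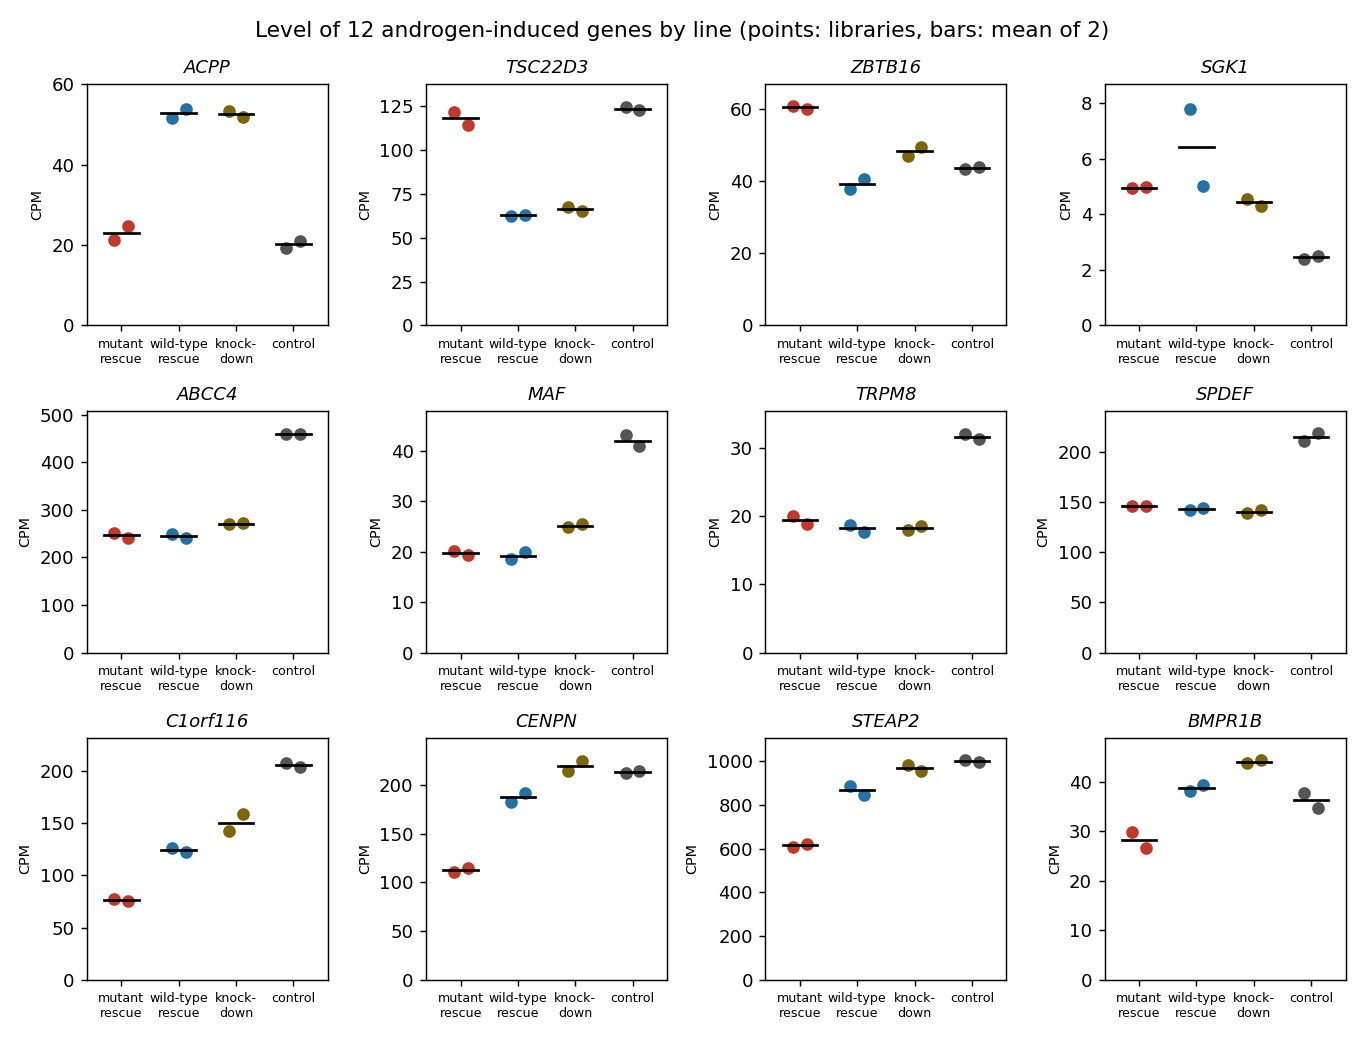
CPM of 12 genes in each library (points) with the mean of 2 (bars) in the mutant rescue, wild-type rescue, knockdown and control; each vertical axis starts at 0. ABCC4, MAF, TRPM8 and SPDEF are highest in the control, ACPP and TSC22D3 pair the mutant rescue with the control, and C1orf116, CENPN and STEAP2 are lowest in the mutant rescue.

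Of 6 metabolic enzymes and lipid carriers, 4 fell and 1 rose on knockdown, beside 25.1% and 22.9% of all tested genes. ALDH1A3, which makes retinoic acid, averaged 47.9 CPM in the mutant rescue, 52.7 CPM in the wild-type rescue, 56.5 CPM in the knockdown and 71.7 CPM in the control. Its log2 fold change was -0.34 (SE 0.05) on knockdown and -0.58 (SE 0.05) in the mutant rescue against the control. ACSL3, which activates long-chain fatty acids, had 349.9 and 364 CPM in the mutant rescue, 352 and 348 CPM in the wild-type rescue, 412 and 412 CPM in the knockdown and 463 and 461 CPM in the control. Its rescue libraries lay below the knockdown, which lay below the control, with log2 fold changes of -0.16 (SE 0.02) on knockdown and -0.23 (SE 0.02) in the wild-type rescue against the knockdown. UAP1, an enzyme of UDP-N-acetylglucosamine synthesis, fell in the knockdown (-0.17, SE 0.02), and HPGD, which inactivates prostaglandins, was at -0.38 (SE 0.10) there, a call that ended without replicate 2 of the knockdown (adjusted p = 0.0906). DBI, which carries acyl-CoA, had 161 and 173 CPM in the mutant rescue, 156 and 149 CPM in the wild-type rescue, 131 and 141 CPM in the knockdown and 129 and 128 CPM in the control. It was higher in the mutant rescue than in the knockdown (0.30, SE 0.03) and than in the control (0.38, SE 0.03). The call of its rise on knockdown, 0.08 (SE 0.04), ended with the DESeq2 Wald test or without replicate 2 of the knockdown or either control library (adjusted p 0.148 to 0.574). In the wild-type rescue against the knockdown DBI was at 0.17 (SE 0.03), a call that ended with the length trend removed (adjusted p = 0.072). SORD, sorbitol dehydrogenase, was not called on knockdown (0.04, SE 0.02) and was lower in the wild-type rescue than in the knockdown (-0.27, SE 0.02), with means of 361 CPM in the wild-type rescue and 434 CPM in the knockdown. It was also called lower in the mutant rescue than in the knockdown (-0.20, SE 0.02), at a mean of 378 CPM.

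Among 7 transcription and elongation factors, 4 fell and 2 rose on knockdown, beside 25.1% and 22.9% of all tested genes. TSC22D3, the leucine zipper protein also known as GILZ, had the largest fall of the 40 genes there. Its level was 122 and 114 CPM in the mutant rescue, 62.5 and 62.9 CPM in the wild-type rescue, 67.5 and 65.0 CPM in the knockdown and 124 and 123 CPM in the control. The wild-type rescue and knockdown libraries lay at about the same low level, and the mutant rescue libraries stood near the control. TSC22D3 was lower on knockdown (log2 fold change -0.90, SE 0.04, edgeR adjusted p = 9.07e-46) and higher in the mutant rescue than in the wild-type rescue (log2 fold change 0.91, SE 0.04, edgeR adjusted p = 4.24e-45). Between the mutant rescue and the control its value was -0.07 (SE 0.04), not called (adjusted p = 0.128). ZBTB16, a zinc finger repressor also called PLZF, had 60.9 and 59.9 CPM in the mutant rescue, 37.8 and 40.6 CPM in the wild-type rescue, 47.1 and 49.6 CPM in the knockdown and 43.4 and 43.8 CPM in the control. Both mutant rescue libraries lay above the other 6, with log2 fold changes of 0.62 (SE 0.05) against the wild-type rescue and 0.47 (SE 0.05) against the control. The call of its smaller value on knockdown, 0.15 (SE 0.05), ended with the DESeq2 Wald test or without replicate 2 of the knockdown or either control library (adjusted p 0.0763 to 0.183). That in the wild-type rescue against the control, -0.15 (SE 0.06), ended with the DESeq2 Wald test or without replicate 1 of the wild-type rescue or either control library (adjusted p 0.0766 to 0.248).

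MAF, a leucine zipper factor, was low in all 3 lines with the METTL3 hairpin. It had 20.0 and 19.3 CPM in the mutant rescue, 18.4 and 19.9 CPM in the wild-type rescue, 24.8 and 25.4 CPM in the knockdown and 43.1 and 40.8 CPM in the control. Its rescue libraries lay below the knockdown libraries, which lay below the control (log2 fold change -0.74, SE 0.07, edgeR adjusted p = 1.30e-19 on knockdown). Its value in the wild-type rescue against the knockdown was -0.38 (SE 0.08). SPDEF, an ETS factor of luminal cells, had 146 and 146 CPM in the mutant rescue, 142 and 144 CPM in the wild-type rescue, 139 and 142 CPM in the knockdown and 211 and 219 CPM in the control. Its log2 fold change on knockdown was -0.61 (SE 0.03), with no call in either rescue against the knockdown. ELK4, another ETS factor, had means of 271 CPM in the mutant rescue, 247 CPM in the wild-type rescue, 259 CPM in the knockdown and 367 CPM in the control. It fell on knockdown (-0.50, SE 0.03). In the wild-type rescue against the knockdown ELK4 was called lower (-0.07, SE 0.03), but its sign turned with the length trend removed (0.0604, adjusted p = 0.104). The call also ended with the DESeq2 Wald test (0.157) and without wild-type rescue replicate 2 (0.312) or knockdown replicate 1 (0.448). The elongation factor ELL2 and its partner EAF2 were not called lower on knockdown. ELL2 had 92.5 and 88.5 CPM in the mutant rescue, 79.1 and 78.0 CPM in the wild-type rescue, 82.4 and 83.3 CPM in the knockdown and 78.0 and 74.8 CPM in the control. Its mutant rescue libraries lay above the control (0.24, SE 0.04). Its knockdown value of 0.12 (SE 0.04) was a call that ended with the DESeq2 Wald test or the length trend removed or without replicate 2 of the control or either knockdown library (adjusted p 0.0615 to 0.201). EAF2, at 4.10 to 5.26 CPM in its lowest and highest line, was not called in any of the 6 comparisons.

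The 3 receptors split. LIFR, the receptor of leukemia inhibitory factor, had 98.1 and 102 CPM in the mutant rescue, 73.3 and 72.9 CPM in the wild-type rescue, 82.0 and 83.4 CPM in the knockdown and 75.1 and 74.5 CPM in the control. It was higher in the mutant rescue than in the wild-type rescue (log2 fold change 0.45, SE 0.04, edgeR adjusted p = 6.66e-18) and than in the control (0.42, SE 0.04). Its value on knockdown was 0.14 (SE 0.04), not called with the length trend removed (adjusted p = 0.537). BMPR1B, a receptor of bone morphogenetic proteins, had 29.8 and 26.5 CPM in the mutant rescue, 38.1 and 39.2 CPM in the wild-type rescue, 43.7 and 44.3 CPM in the knockdown and 37.7 and 34.7 CPM in the control. Its mutant rescue libraries lay below the other 6, at -0.65 (SE 0.06) against the knockdown, whereas the knockdown lay above the control (0.28, SE 0.06). PTGER4, a prostaglandin E2 receptor, had 4.76 and 3.08 CPM in the mutant rescue, 5.41 and 4.64 CPM in the wild-type rescue, 5.87 and 4.64 CPM in the knockdown and 5.05 and 5.16 CPM in the control. The libraries of its lines overlapped in 5 of the 6 comparisons. The 1 call, lower in the mutant rescue than in the knockdown (-0.44, SE 0.18), ended with the DESeq2 Wald test or without replicate 2 of the mutant rescue or replicate 1 of the knockdown (adjusted p 0.201 to 0.611).

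Of 6 kinases and signalling proteins, 4 rose and 2 fell on knockdown, beside 22.9% and 25.1% of all tested genes. SGK1, a serum- and glucocorticoid-induced kinase at low counts in LNCaP, had 4.96 and 4.97 CPM in the mutant rescue, 7.80 and 5.03 CPM in the wild-type rescue, 4.57 and 4.32 CPM in the knockdown and 2.40 and 2.52 CPM in the control. All 6 libraries with the METTL3 hairpin lay above both control libraries, with a log2 fold change of 1.01 (SE 0.20) in the mutant rescue and 0.85 (SE 0.21) on knockdown (edgeR adjusted p = 2.35e-04). The highest of the 8 values was in wild-type rescue replicate 1. The call of SGK1 in the wild-type rescue against the knockdown, 0.50 (SE 0.16) with it and 0.18 without, ended without replicate 1 of the wild-type rescue or either knockdown library (adjusted p 0.0629 to 0.624). RHOU, a small GTPase, had 45.3 and 45.5 CPM in the mutant rescue, 44.6 and 44.6 CPM in the wild-type rescue, 47.9 and 46.1 CPM in the knockdown and 38.5 and 38.5 CPM in the control. Its control libraries were the lowest, and it rose on knockdown by 0.29 (SE 0.06) on the log2 scale. TRIB1, a pseudokinase, had 53.3 and 55.7 CPM in the mutant rescue, 55.4 and 54.1 CPM in the wild-type rescue, 49.3 and 54.5 CPM in the knockdown and 47.2 and 46.7 CPM in the control. Its knockdown value was 0.14 (SE 0.05), a call that ended with the DESeq2 Wald test or without replicate 2 of the knockdown or either control library (adjusted p 0.0827 to 0.407). In the wild-type rescue against the control it was at 0.22 (SE 0.05).

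NDRG1, a stress- and differentiation-related protein, had 208 and 208 CPM in the mutant rescue, 169.9 and 171 CPM in the wild-type rescue, 201 and 196 CPM in the knockdown and 190.3 and 184 CPM in the control. Its libraries in the mutant rescue lay above both wild-type rescue libraries (log2 fold change 0.29, SE 0.03, edgeR adjusted p = 2.93e-16). On knockdown NDRG1 was at 0.09 (SE 0.03), a call that ended with the DESeq2 Wald test or without replicate 1 of the knockdown or replicate 2 of the control (adjusted p 0.0547 to 0.183). PMEPA1, which dampens transforming growth factor beta signalling, and CAMKK2, a kinase upstream of AMPK, fell together on knockdown, by log2 fold changes of -0.39 (SE 0.03) and -0.35 (SE 0.03). Both were called lower still in the mutant rescue than in the knockdown. They were also called lower in the wild-type rescue than in the knockdown, PMEPA1 at -0.09 (SE 0.03) and CAMKK2 at -0.11 (SE 0.03). Those calls in the wild-type rescue ended with the DESeq2 Wald test or the length trend removed. They also ended without replicate 1 of the wild-type rescue or replicate 2 of the knockdown. In GENCODE 29, exons of PMEPA1 share 343 bases with NKILA on the opposite strand, a gene with 169 to 250 counts. PMEPA1 averaged 224 CPM in the mutant rescue, 235 CPM in the wild-type rescue, 249 CPM in the knockdown and 327 CPM in the control. CAMKK2 averaged 143 CPM in the mutant rescue, 154 CPM in the wild-type rescue, 166 CPM in the knockdown and 212 CPM in the control.

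FKBP5, a cochaperone that binds steroid receptor complexes, had 299 and 297 CPM in the mutant rescue, 259.6 and 258 CPM in the wild-type rescue, 268 and 275 CPM in the knockdown and 335 and 338 CPM in the control. It was lower on knockdown (log2 fold change -0.31, SE 0.02, edgeR adjusted p = 7.27e-24) and higher in the mutant rescue than in the wild-type rescue (0.21, SE 0.03). In the wild-type rescue against the knockdown its small fall (-0.07, SE 0.03) turned sign with the length trend removed (0.0598, adjusted p = 0.0929). The call also ended with the DESeq2 Wald test (0.100) and without wild-type rescue replicate 1 (0.0680), wild-type rescue replicate 2 (0.141) or knockdown replicate 2 (0.267). Of the 4 genes named above as glucocorticoid receptor targets, TSC22D3 and FKBP5 were lower on knockdown and SGK1 and ZBTB16 higher.

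CENPN, a centromere protein, fell in the mutant rescue but was not called on knockdown. Its level was 111 and 115 CPM in the mutant rescue, 182 and 192 CPM in the wild-type rescue, 214 and 224 CPM in the knockdown and 212 and 215 CPM in the control. The knockdown and control libraries overlapped (0.04, SE 0.03, adjusted p = 0.271), and the mutant rescue lay below the wild-type rescue (log2 fold change -0.73, SE 0.03, edgeR adjusted p = 3.53e-47) and below the knockdown (-0.95, SE 0.03). In GENCODE 29, exons of CENPN share 457 bases with CMC2 on the opposite strand, a gene with 914 to 1273 counts. The strand setting of the counting is not given in the sources used here, and the part of such overlaps in these results was not tested. NCAPD3, a condensin subunit, fell on knockdown (-0.14, SE 0.04), as did the centriolar protein MPHOSPH9 (-0.20, SE 0.04), whose exons share 49 bases with C12orf65 and which was higher in the mutant rescue than in the wild-type rescue (0.20, SE 0.04).

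C1orf116, an androgen-regulated protein of little known function, had the largest fall of the 40 genes in the mutant rescue against the control. It stood at 77.3 and 74.9 CPM in the mutant rescue, 126 and 122 CPM in the wild-type rescue, 142 and 158 CPM in the knockdown and 208 and 204 CPM in the control. The 4 lines did not overlap and were lowest in the mutant rescue, then the wild-type rescue, the knockdown and the control. It had log2 fold changes of -0.46 (SE 0.03) on knockdown, -0.28 (SE 0.03) in the wild-type rescue against the knockdown and -0.70 (SE 0.04) in the mutant relative to the wild-type rescue. In the mutant rescue against the control the change was the sum of these steps (log2 fold change -1.43, SE 0.04, edgeR adjusted p = 1.25e-75). HERC3, a ubiquitin ligase, had 126 and 126 CPM in the mutant rescue, 130.1 and 129 CPM in the wild-type rescue, 163 and 161 CPM in the knockdown and 171 and 183 CPM in the control. It was lower in the wild-type rescue than in the knockdown (-0.32, SE 0.03), and its knockdown value of -0.13 (SE 0.03) was not called without control replicate 2 (adjusted p = 0.0983). TPD52, a protein of vesicle traffic, stayed within 335 to 363 CPM over the means of the 4 lines. Its knockdown value of -0.08 (SE 0.02) was a call that ended with the DESeq2 Wald test or without replicate 2 of the knockdown or replicate 1 of the control (adjusted p 0.0544 to 0.0799).

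The knockdown comparison and the comparison of the rescues share no library. The knockdown comparison sets less METTL3 RNA against the control level. The comparison of the rescues sets catalytically dead against active METTL3, with METTL3 RNA above the control level in both lines. Called in the same direction in both were 13 of the 40 genes, 8 lower and 5 higher, beside 11.0% of all tested genes. C1orf116, UAP1, CAMKK2 and ALDH1A3 were among the 8, and ZBTB16, LIFR and NDRG1 among the 5. UAP1 and C1orf116 kept both calls under every alternative and with any library left out, and the other 11 lost at least 1 of them in some setting. The ALDH1A3 value between the rescues was -0.14 (SE 0.05), a call that ended with no low-count filter or the DESeq2 Wald test or without either mutant rescue library or either wild-type rescue library (adjusted p 0.0534 to 0.16). Called in opposite directions were 9 genes, beside 13.1% of all genes, and all 9 kept both calls under every alternative and with any library left out. TMPRSS2, AZGP1, TSC22D3, ELK4, FKBP5 and MPHOSPH9 fell on knockdown and were higher in the mutant than in the wild-type rescue. ACPP, KCNN2 and BMPR1B rose on knockdown and were lower in the mutant rescue. How often all genes kept such paired calls was not computed, so the counts of kept pairs have no background beside them. Since these 9 were chosen for calls of opposite sign, their difference is larger than either change and is given as a description, with the largest values in ACPP (knockdown value minus rescue value 2.59 (SE 0.09)) and TSC22D3 (-1.81, SE 0.06). Over all 40 genes, the test of the difference called 27, also without wild-type rescue replicate 1, beside a background of 45.7% (55.9% at 10 CPM or more). The lack of activity and other differences between these lines cannot be told apart.

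**Figure D4:**
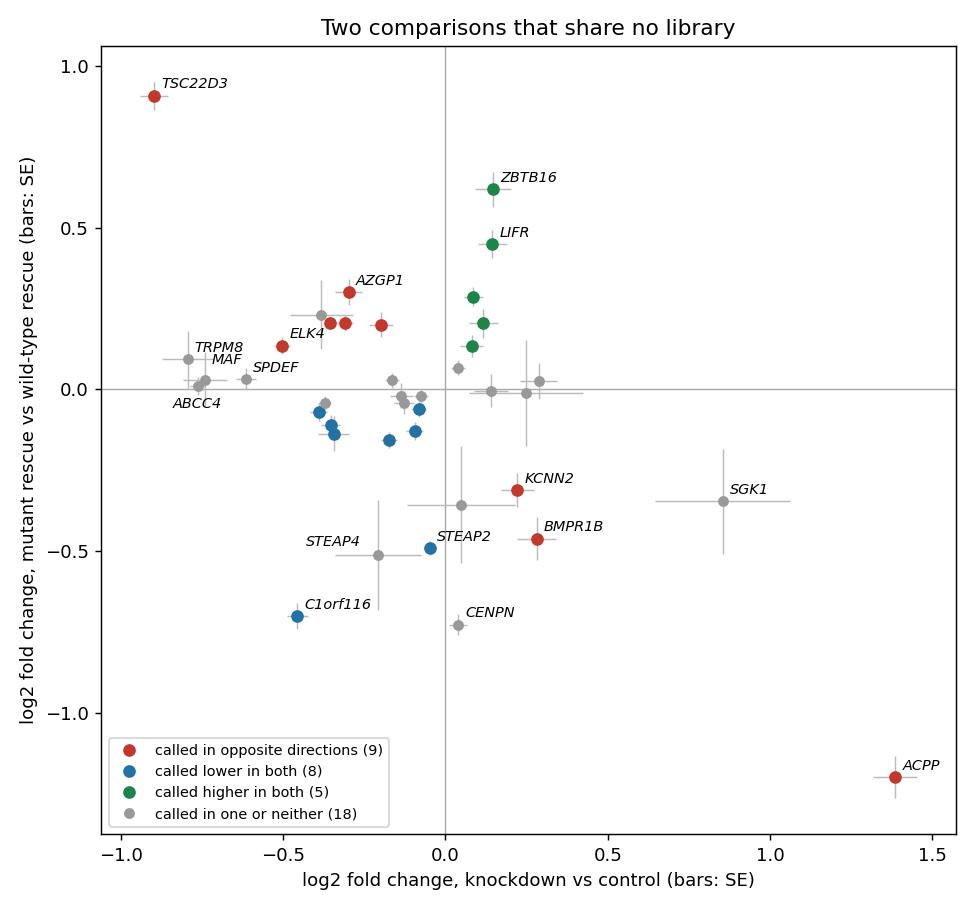
Log2 fold changes of the 40 genes in the mutant relative to the wild-type rescue (vertical axis) and in the knockdown against the control (horizontal axis), with SE bars. TSC22D3 (0.91 and -0.90) and ACPP (-1.20 and 1.38) lie in opposite corners, and ABCC4, MAF, TRPM8 and SPDEF lie left of 0 near the horizontal line.

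Of 16 partner factors, coregulators and chaperones of the androgen response, 7 fell and 6 rose on knockdown, with a median of -0.02 (all genes -0.01). The background there is 25.1% of all tested genes lower and 22.9% higher, or 30.6% and 27.1% at 10 CPM or more. FOXA1 had a knockdown value of -0.24 (SE 0.02) and HOXB13 one of -0.24 (SE 0.02) on the log2 scale. Beside the same background, the 4 kallikreins all fell on knockdown, KLK2 at -0.94 (SE 0.02) and KLK3 at -0.50 (SE 0.02). KLK3 was higher in both rescues than in the knockdown by 0.24 (SE 0.02) in the mutant and 0.19 (SE 0.02) in the wild-type rescue, while KLK2 was at -0.30 (SE 0.03) in the mutant and, not called, at -0.04 (SE 0.03) in the wild-type rescue.

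Among genes that androgen is known to repress, 5 of 8 rose on knockdown and 1 fell, with a median of 0.55 (all genes -0.01; 22.9% of all genes rose and 25.1% fell). UGT2B15 and UGT2B17, which glucuronidate androgens, are near-identical, so their reads may be split uncertainly. They rose by log2 fold changes of 2.38 (SE 0.06) and 1.64 (SE 0.06), and ACKR3, a chemokine receptor, had a value of -0.40 (SE 0.07). In the mutant rescue against the knockdown, 7 of the 8 fell and 0 rose, with a median of -0.56 (all genes 0.00; 25.8% fell and 25.9% rose), UGT2B15 at -1.25 (SE 0.05) and MET at -1.35 (SE 0.20). Among 68 further androgen-response genes that were tested, of 70 symbols listed, 26 fell and 18 rose on knockdown, with a median of -0.05. Of all tested genes 25.1% fell and 22.9% rose there, or 30.6% and 27.1% at 10 CPM or more. SLC38A2, an amino acid transporter, at -0.67 (SE 0.03) and the cyclin CCND1 at -0.66 (SE 0.02) had the largest falls, and CDK6 (0.77, SE 0.14) and AKAP12 (0.74, SE 0.06) the largest rises. Between the rescues 26 of the 68 were lower in the mutant and 26 higher, beside 20.3% and 21.0% of all genes, with INSIG1, a regulator of cholesterol synthesis, at 1.30 (SE 0.04) and GUCY1A3, a guanylate cyclase subunit, at -0.67 (SE 0.03).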

How the data were processed

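Total RNA was extracted with TRIzol and made into libraries with a stranded messenger RNA kit, per the labels' protocols. The authors deposited raw counts per gene for each of the 8 libraries, and, as an other column, gene length in bases; CASAVA, STAR 2.5.2b, featureCounts, DESeq2 and the build hg19 are named, without parameters, per the submitters' processing notes. Counts were fitted in edgeR 4.0.16 (R 4.3.3): filterByExpr by group (minimum count 10, minimum total 15), TMM scaling, and a robust quasi-likelihood model with 1 mean per line over all 8 libraries. The tests were two-sided, with Benjamini-Hochberg adjustment over 15289 genes and a threshold of 0.05. Standard errors were taken from the size of the log2 fold change over the root of F. With 2 libraries against 2, an exact permutation test cannot go below 0.333. Counts lack molecular identifiers, so depth covers counting error only.

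The genes and lists were chosen with earlier results of these data known. The rule for genes given in full took the 5 largest rises and falls among called genes of each comparison; others were added by role. Alternatives were DESeq2 1.42.0 size factors, no low-count filter, the DESeq2 Wald test, the compared groups alone, removal of a lowess trend (span 0.3) over gene length, the replicate number as a block, and each library left out, its partner being assumed to vary like the other lines. TPM was computed from the counts and the deposited lengths. The fit was tested on simulated data. Some genes of the pathway are not reported here. hg19 coordinates were not used; promoter coordinates are of GRCh38.p14. Of 70 listed further androgen-response symbols, PPAP2A is an older name of PLPP1, also listed, and SEPP1 an older name of SELENOP, which was not counted.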

Additional observations from a re-analysis of the deposited data

Results flagged for a closer look

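In 9 of the 40 genes the change on knockdown and the change in the mutant relative to the wild-type rescue went in opposite directions, both called, which by itself makes the difference larger than either change. The knockdown log2 fold change minus that between the rescues was 2.59 in ACPP, 0.74 in BMPR1B and 0.53 in KCNN2. It was -1.81 in TSC22D3, -0.64 in ELK4, -0.60 in AZGP1, -0.56 in TMPRSS2, -0.52 in FKBP5 and -0.40 in MPHOSPH9. In ACPP and TSC22D3 the mutant rescue lay near the control and the wild-type rescue near the knockdown.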

How the results depend on the processing

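Of 209 called values of the 40 genes over the 6 comparisons and the difference test, 164 kept their direction and their call under every alternative that gave a value. The share of calls kept over all genes was not computed. Counts of called genes, both directions together, stayed within 1.5 times the reported count everywhere except in the wild-type rescue against the knockdown. There 22 were called, beside 24% of all genes. The DESeq2 Wald test called 14, with no adjusted p for 4 genes, beside 17.6% of all genes. With the length trend removed 12 were called, beside 17.2% of all genes, and this alternative takes out the fall of fold change with length. Leaving out a library gave 15 to 19 genes there, 28 to 32 against 35 on knockdown, 26 to 27 against 29 in the mutant rescue against the knockdown, 21 to 24 against 25 between the rescues, 32 against 34 in the wild-type rescue and 34 to 38 against 37 in the mutant rescue against the control, and 26 to 28 against 27 in the difference test. The share of all tested genes called was also lower in every comparison with a library left out. The sign turned in ELK4 and in FKBP5, both in the wild-type rescue against the knockdown with the length trend removed (0.0604 and 0.0598). By direction, the 11 rises on knockdown were 6 with the DESeq2 Wald test, 7 without knockdown replicate 2 and 6 without control replicate 2, and the 13 genes lower in the mutant than in the wild-type rescue were 8 with the Wald test. By setting, calls that ended were 31 with the DESeq2 Wald test, 18 with the length trend removed beside those of the pair that turned sign, 9 without a filter, 5 with DESeq2 size factors and 5 with the compared groups alone. The replicate numbers showed no pairing of the libraries (correlations of deviations from the line means of -0.0141 to 0.0194). Those deviations are mostly counting error (mean chi-square per degree of freedom 1.21 to 1.35 by line), so a pairing could have been missed. With the replicate number as a block the counts were 35, 22, 29, 25, 34, 37 and 27, as without it. Counts limit SGK1, STEAP4, PTGER4 and EAF2, the 4 genes with a mean under 10 CPM.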
